A study of Mus musculus with 9 samples.

Results

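The genes described here are the D-type cyclins Ccnd1, Ccnd2 and Ccnd3, their kinase partners Cdk4 and Cdk6, the retinoblastoma family members Rb1, Rbl1 and Rbl2, and the next cyclin and kinase of the cell cycle, Ccne1 and Cdk2. They were taken by name, as every probe set of the arrays annotated to 1 of these 10 genes and to no other gene. That gave 22 of the 22690 probe sets on the array, and all 10 genes, of 12393 named on it, had at least 1. The study profiled 3 kinds of myeloid cell with 9 Affymetrix mouse arrays, and its leukemia was driven by MLL-AF9, which joins parts of Kmt2a and Mllt3. Each sample held about 50000 sorted cells, and about 50 ng of total RNA was labelled. The arrays are bulk measurements, so fewer cells of a type and less RNA per cell cannot be told apart.

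The normal GMP, with 3 arrays, are granulocyte-macrophage progenitors of bone marrow, the cells that give rise to granulocytes and macrophages. The L-GMP, with 3 arrays, are cells resembling GMP that were isolated from the marrow of leukemic animals. The L-GMP-derived cells, with 3 arrays, were grown from L-GMP in culture. Titles of these last arrays are codes and their source reads L-GMP, so they were placed in this group by elimination from the design text. The 1 GMP array that carries no number is called replicate 1. The sources used here do not give strain, age, the way MLL-AF9 was introduced or the culture conditions. No label states that the replicates were separate animals or cultures, so p-values measure only how these arrays vary, and that variation may be technical.

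D-type cyclins are the cyclins that respond to growth factors. They bind Cdk4 or Cdk6, and the active kinase phosphorylates Rb1 and its relatives Rbl1 (p107) and Rbl2 (p130), the pocket proteins, which otherwise hold E2F transcription factors and keep S phase genes off. E2F then raises cyclin E1 (Ccne1), whose kinase partner Cdk2 completes the phosphorylation. Mouse embryos that lack every D-type cyclin die with failing blood formation, and leukemia cells with MLL fusions are known to depend on Cdk6.

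Signals are the authors' intensities on a linear scale. Values below 62.4 were raised to that floor before log2 was taken, and a probe set was tested if it lay above 111 on at least 3 of the 9 arrays. Of the 22 probe sets 19 were tested, and they cover 9 of the 10 genes. Fold changes are differences of mean log2 signal, and "at least" marks a fold whose lower group has 1 or more arrays at the floor. Adjusted p-values are from limma with the Benjamini and Hochberg method over all 14578 tested probe sets, and a gene rose or fell where this p was under 0.05. Where a gene has several probe sets, the one of highest mean signal stands for it.

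Of the L-GMP-derived arrays replicate 1 was unlike the others. It differed at least 2-fold from the mean of replicates 2 and 3 at 481 probe sets (3.30%), while replicates 2 and 3 differed so from each other at 35 (0.240%). The 10 GMP markers (Kit, Cd34, Fcgr3, Mpo, Elane, Prtn3, Ctsg, Csf1r, Cebpa and Ms4a3) were all above 111 on every GMP and L-GMP array. In the L-GMP-derived cells Cd34 was at the floor and Kit below 111 on all 3 arrays, and the summed GMP marker signal was 45235 to 46669 in GMP, 33067 to 40469.6 in L-GMP and 28880.1 to 32706 in L-GMP-derived cells. Of the 10 markers 4 were lower and 1 higher in L-GMP than in GMP by the limma test described above. In L-GMP-derived cells 4 were lower and 0 higher than in GMP. Of all tested genes 12.8% were lower and 13.1% higher in L-GMP, and 10.6% lower and 13.4% higher in L-GMP-derived cells. Summed signal of 9 mature neutrophil genes was 975 on L-GMP-derived replicate 1, 8260.0 and 8499 on replicates 2 and 3, 9056 to 22689 in GMP and 17928 to 36735 in L-GMP. Summed signal of 10 macrophage and dendritic genes was 1768 on L-GMP-derived replicate 1, 3111 and 3319 on replicates 2 and 3, 2039 to 2058 in GMP and 4406 to 5251 in L-GMP. Mast cell, eosinophil and basophil genes summed to 3345 to 3651 in GMP, 4259 to 6470 in L-GMP and 262 to 465 in L-GMP-derived cells. Single genes of the last 2 lists went both ways in L-GMP against GMP. H2-Aa and Mcpt8 passed the filter through 1 group each and are left out here. Of 5 other tested macrophage and dendritic genes 3 were higher and 1 lower. Of 4 other tested mast cell, eosinophil and basophil genes 1 was higher and 1 lower. Summed signal of the 5 stem cell markers with a probe set, of 7 listed, was 1154 to 1206 in GMP, 718 to 1201 in L-GMP and 205 to 253 in L-GMP-derived cells. These markers did not move together. Means in GMP and L-GMP were 615 and 808 for Gata2, 245 and 66.0 for Hlf and 164 and -24.5 for Tal1. They were 123 and 116 for Mecom, and Procr was at the floor. The ratio of 3' to 5' beta-actin signal, a measure of RNA integrity, was 6.99 to 8.12 in GMP, 4.87 to 5.56 in L-GMP and 6.93 to 7.18 in L-GMP-derived cells. The same ratio for Gapdh was 7.08 to 8.77 in GMP, 6.17 to 11.6 in L-GMP and 5.86 to 9.22 in L-GMP-derived cells. These Gapdh ranges overlapped. The part of these differences in the results below was not tested.

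In L-GMP, Ccnd2, Ccnd1 and Cdk4 were lower than in GMP and Ccnd3 was higher. Ccnd2 fell furthest, 16.9-fold, and Ccnd3 rose 2.41-fold. These 4 genes are those past the threshold among the 9 tested, 1 higher and 3 lower, where 25.9% of all 8959 tested genes passed (13.1% higher and 12.8% lower). The groups did not overlap for 6 of the 9 genes, against 46.9% of all genes. The median log2 fold change of the 9 was 0.01, and that of all genes was -0.01.

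Against GMP the L-GMP-derived cells had lower Ccnd1 and Ccnd2 and higher Ccnd3. These were 3 of the 9 genes, 1 higher and 2 lower, against 24.0% of all genes (13.4% higher and 10.6% lower), and groups did not overlap for 3 of the 9, against 41.0%. The median log2 fold change was 0.06, with 0.00 over all genes. Both comparisons with GMP rest on the same 3 GMP arrays. Between the leukemic groups Ccnd2 was the 1 gene of the 9 past the threshold, higher in L-GMP-derived cells, where 30.7% of all genes passed (16.6% higher and 14.1% lower). Groups did not overlap for 2 of the 9 genes, against 41.2%, and the median log2 fold change was -0.04, with -0.00 over all genes.

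**Figure D1:**
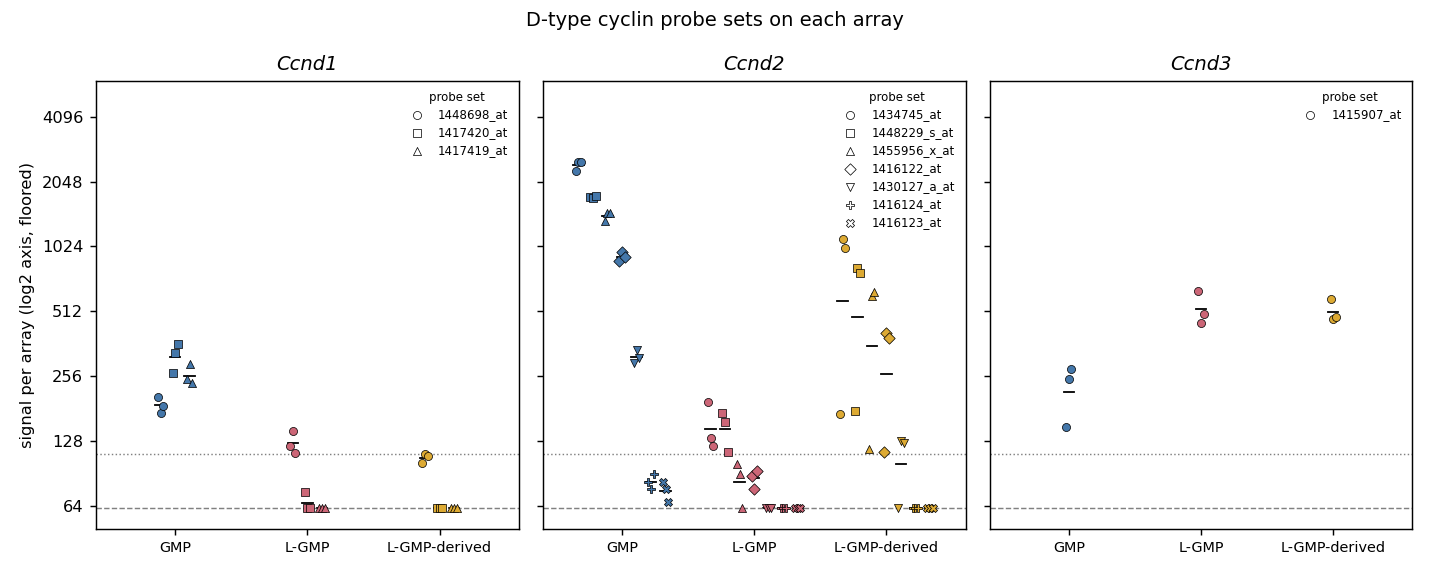
Signal of every D-type cyclin probe set on each array, on a log2 axis, with values under the floor drawn at it. Points are arrays, short lines are means of log2 signal, the dashed line is the floor of 62.4 and the dotted line the filter at 111. Ccnd2 was high in GMP, low in L-GMP and split in the L-GMP-derived cells, and Ccnd3 ran the other way between GMP and L-GMP.

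Ccnd2 encodes cyclin D2, a D-type cyclin abundant in blood cells. Its brightest probe set, 1434745_at, read 2303, 2533 and 2537 on the GMP arrays, 193, 132 and 121 on the L-GMP arrays and 169.9, 1104 and 1009 on the L-GMP-derived arrays. All GMP arrays lay above all others, and L-GMP-derived replicate 1 lay among the L-GMP arrays while replicates 2 and 3 lay between L-GMP and GMP. The signal fell from 2457 ± 134 (SD, n = 3) in GMP to 149 ± 39.0 in L-GMP, a log2 fold change of -4.08 ± 0.57 (SE, limma adjusted p = 5.11e-04). This call held when any single array was left out, with folds of 15.4 to 19.4.

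The other probe sets of Ccnd2 gave the same direction between L-GMP and GMP. The fall was 11.9-fold by 1448229_s_at, at least 17.3-fold by 1455956_x_at and 10.7-fold by 1416122_at, with limma adjusted p-values of 1.30e-04 to 3.50e-04. It was at least 5.01-fold by 1430127_a_at. That probe set was above 111 on 3 GMP, 0 L-GMP and 2 L-GMP-derived arrays. Without the GMP arrays it would not have been tested, so it adds no support to the calls against GMP. Across the 9 arrays the 5 tested probe sets correlated pairwise at 0.963 to 0.999, as a description, since they share samples and the split between groups. The remaining 2 Ccnd2 probe sets were too dim to test. One of them, 1416124_at, read 82.9, 76.5 and 89.7 in GMP, and 1416123_at read 82.2, 76.9 and 66.9, and both were at the floor on all 6 leukemic arrays. Probe sets with _s_at or _x_at in the name can also bind related transcripts.

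L-GMP-derived cells had a Ccnd2 signal of 761 ± 514 (SD, n = 3), the largest SD of the member genes in any group. Against GMP this was 4.28-fold lower (log2 fold change -2.10 ± 0.57 SE, limma adjusted p = 0.0219), and 3 other probe sets were 3.50-fold to 4.02-fold lower and 1430127_a_at at least 3.13-fold lower. Against L-GMP it was 3.94-fold higher (log2 fold change 1.98 ± 0.57, adjusted p = 0.0236). Of the 5 tested probe sets 4 rose in this comparison, and 1430127_a_at did not pass (adjusted p = 0.057). The call against GMP was lost without GMP replicate 1, 2 or 3 (adjusted p = 0.0549, 0.0669 and 0.0728). The call against L-GMP was lost without L-GMP replicate 2 or 3 (0.0728 and 0.0738) and without L-GMP-derived replicate 2 or 3 (0.0879 and 0.0927).

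The spread came from 1 array. Ccnd2 on L-GMP-derived replicate 1 was 6.21-fold below the mean log2 signal of replicates 2 and 3 by 1434745_at, and 3.47-fold to 5.21-fold below it by 3 others and at least 2.03-fold by 1430127_a_at, while replicates 2 and 3 differed by 1.02-fold to 1.09-fold. Replicate 1 lay among the L-GMP arrays by 1434745_at, but above all of them by 1448229_s_at, 1455956_x_at and 1416122_at. Its signals by those were 177, 118 and 114, against at most 173, 99.8 and 92.8 in L-GMP. By 1430127_a_at it was at the floor, as were all L-GMP arrays. Without that array Ccnd2 was 2.33-fold lower than in GMP (log2 fold change -1.22 ± 0.18 SE, limma adjusted p = 7.40e-04) and 7.25-fold higher than in L-GMP (2.86 ± 0.18, adjusted p = 2.01e-06). All 5 tested probe sets then passed in both comparisons, at 2.19-fold to 2.47-fold lower than in GMP. Against L-GMP the other probe sets were then 5.45-fold higher by 1448229_s_at, 4.62-fold by 1416122_at, at least 7.46-fold by 1455956_x_at and at least 2.03-fold by 1430127_a_at. The same array was the lowest of all 9 in summed neutrophil and macrophage signal, and its Mpo signal was 3581, against 425 and 319 on replicates 2 and 3. Whether these differences and that of Ccnd2 belong together was not tested.

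Ccnd1 encodes cyclin D1. Its brightest probe set, 1448698_at, read 205, 173 and 186 in GMP, 121, 143 and 113 in L-GMP and 101, 111 and 108 in L-GMP-derived cells. The 3 groups did not overlap and ran in that order, all within a narrow range near the filter. Ccnd1 fell from 188 ± 15.9 (SD, n = 3) to 126 ± 15.5 in L-GMP, 1.50-fold (log2 fold change -0.58 ± 0.13 SE, limma adjusted p = 0.00936). With the replicate number as a block this call was lost (adjusted p = 0.119). In L-GMP-derived cells it was 107 ± 5.09, 1.76-fold below GMP (-0.81 ± 0.13, adjusted p = 0.00164). The difference between the leukemic groups, 1.17-fold, did not pass (adjusted p = 0.234).

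The other probe sets of Ccnd1 gave larger falls. By 1417420_at the signals were 265, 328 and 361 in GMP, 74.0, 54.6 and 41.9 in L-GMP, and 9.59, 4.71 and 0.595 in L-GMP-derived cells. By 1417419_at they were 247, 290.0 and 236 in GMP, and all 6 leukemic arrays were below the floor. The falls were at least 4.77-fold and at least 4.11-fold in L-GMP, and at least 5.05-fold and at least 4.11-fold in L-GMP-derived cells. Both probe sets passed the filter only through the GMP arrays, so they had to differ, and they add no support to the call by 1448698_at.

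Ccnd3 encodes cyclin D3, the D-type cyclin that rose. Its probe set, 1415907_at, read 148, 249 and 277 in GMP, 638, 449.9 and 497 in L-GMP and 581, 469 and 479 in L-GMP-derived cells. Every leukemic array was above every GMP array, and the leukemic groups overlapped. The signal rose from 225 ± 68.0 (SD, n = 3) to 528 ± 98.2 in L-GMP, 2.41-fold (log2 fold change 1.27 ± 0.23 SE, limma adjusted p = 0.0023). It was 509.9 ± 62.1 in L-GMP-derived cells, 2.34-fold above GMP (1.23 ± 0.23, adjusted p = 0.00317). The leukemic groups differed by 1.03-fold (adjusted p = 0.914). Both rises against GMP held under every alternative tried.

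**Figure D2:**
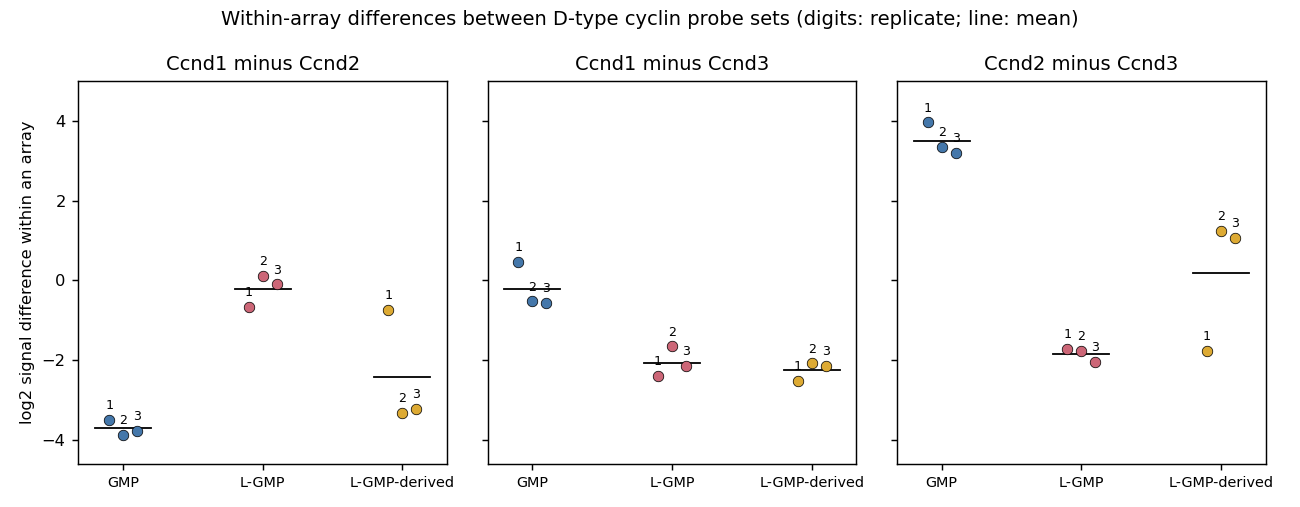
Difference in log2 signal between pairs of D-type cyclins within each array, for the probe set that stands for each gene. Points are arrays with their replicate number and lines are group means. The level of each difference has no meaning, because probe sets bind differently, and only its shift between groups can be read.

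Within an array the balance of cyclins shifted between groups. The log2 difference of Ccnd2 minus Ccnd3 was 3.96, 3.35 and 3.19 in GMP, -1.72, -1.77 and -2.04 in L-GMP and -1.77, 1.23 and 1.08 in L-GMP-derived cells. It was lower by 5.34 in L-GMP than in GMP (the group means were -1.84 ± 0.17 and 3.50 ± 0.41, SD, n = 3), with no overlap between the groups. An exact two-sided permutation test of 3 against 3 arrays cannot go below p = 0.1, and this difference reached that value (adjusted p = 0.133 over 12 such tests). In L-GMP-derived cells it was lower by 3.32 than in GMP and higher by 2.02 than in L-GMP (exact permutation p = 0.1 and 0.3), and the last pair overlapped because replicate 1 lay with the L-GMP arrays. Ccnd1 minus Ccnd3 was lower by 1.85 in L-GMP and by 2.04 in L-GMP-derived cells than in GMP (exact permutation p = 0.1 for both). Ccnd1 minus Ccnd2 was higher by 3.49 and 1.28 in these comparisons (exact permutation p = 0.1 for both), and the second value was 0.44 without L-GMP-derived replicate 1.

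Cdk4 is the catalytic partner of the D-type cyclins. Its brightest probe set, 1422441_x_at, read 886, 1132 and 1032 in GMP, 657, 779 and 708 in L-GMP and 960.2, 795 and 853 in L-GMP-derived cells. All L-GMP arrays were below all others, and the L-GMP-derived and GMP arrays overlapped. The signal fell from 1017 ± 124 (SD, n = 3) to 715 ± 61.4 in L-GMP, 1.42-fold (log2 fold change -0.50 ± 0.13 SE, limma adjusted p = 0.0161). The call was lost without L-GMP replicate 1 (adjusted p = 0.0557), GMP replicate 2 (0.0767) or GMP replicate 3 (0.0638). L-GMP-derived cells, at 869.5 ± 83.8, did not pass against GMP (adjusted p = 0.247) or against L-GMP (0.133).

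The remaining Cdk4 probe sets read lowest in L-GMP too, but passed in another comparison. By 1422439_a_at the signals were 492, 454 and 396 in GMP, 313, 308 and 382 in L-GMP and 549, 454 and 426 in L-GMP-derived cells. By 1422440_at they were 280.4, 287 and 275 in GMP, 223, 216 and 232 in L-GMP and 352, 277 and 297 in L-GMP-derived cells. L-GMP was 1.34-fold and 1.25-fold below GMP (limma adjusted p = 0.0556 and 0.0655), without overlap, and both passed when L-GMP-derived replicate 1 was left out (0.0266 and 0.0279). L-GMP-derived cells were 1.42-fold and 1.37-fold above L-GMP (adjusted p = 0.0225 and 0.014). Pairwise correlations of the 3 probe sets over the 9 arrays were 0.609 to 0.921.

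The promoter of Cdk4 is printed because of its E-boxes, the CACGTG element bound by Myc and related factors, and human CDK4 is a known Myc target. The window is chr10:127063285-127063534, plus strand, the 250 bases before the start site in RefSeq on GRCm38.p6, and capitals mark each CACGTG.
Cdk4: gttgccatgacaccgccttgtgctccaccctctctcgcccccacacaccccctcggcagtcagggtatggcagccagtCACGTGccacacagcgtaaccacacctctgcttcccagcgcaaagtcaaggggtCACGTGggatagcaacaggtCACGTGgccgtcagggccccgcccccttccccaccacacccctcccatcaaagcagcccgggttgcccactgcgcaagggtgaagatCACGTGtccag
The element, which reads the same on both strands, occurred 4 times. Of 32817 promoter windows of this length, 6.02% held it at least once and 7 (0.0213%) held at least 4 copies. The match is a description of these letters, and binding was not measured.

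Cdk6, the other kinase partner, was too dim to test. Its probe set, 1460291_at, read 45.0, 61.0 and 62.6 in GMP, 54.3, 36.8 and 69.9 in L-GMP and 53.2, 52.9 and 55.0 in L-GMP-derived cells. None reached the filter of 111 and 7 of the 9 were at the floor, so no fold is given. A dim probe set gives no evidence on whether the gene is expressed. The promoter window of Cdk6 held 1 CACGTG.

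**Figure D3:**
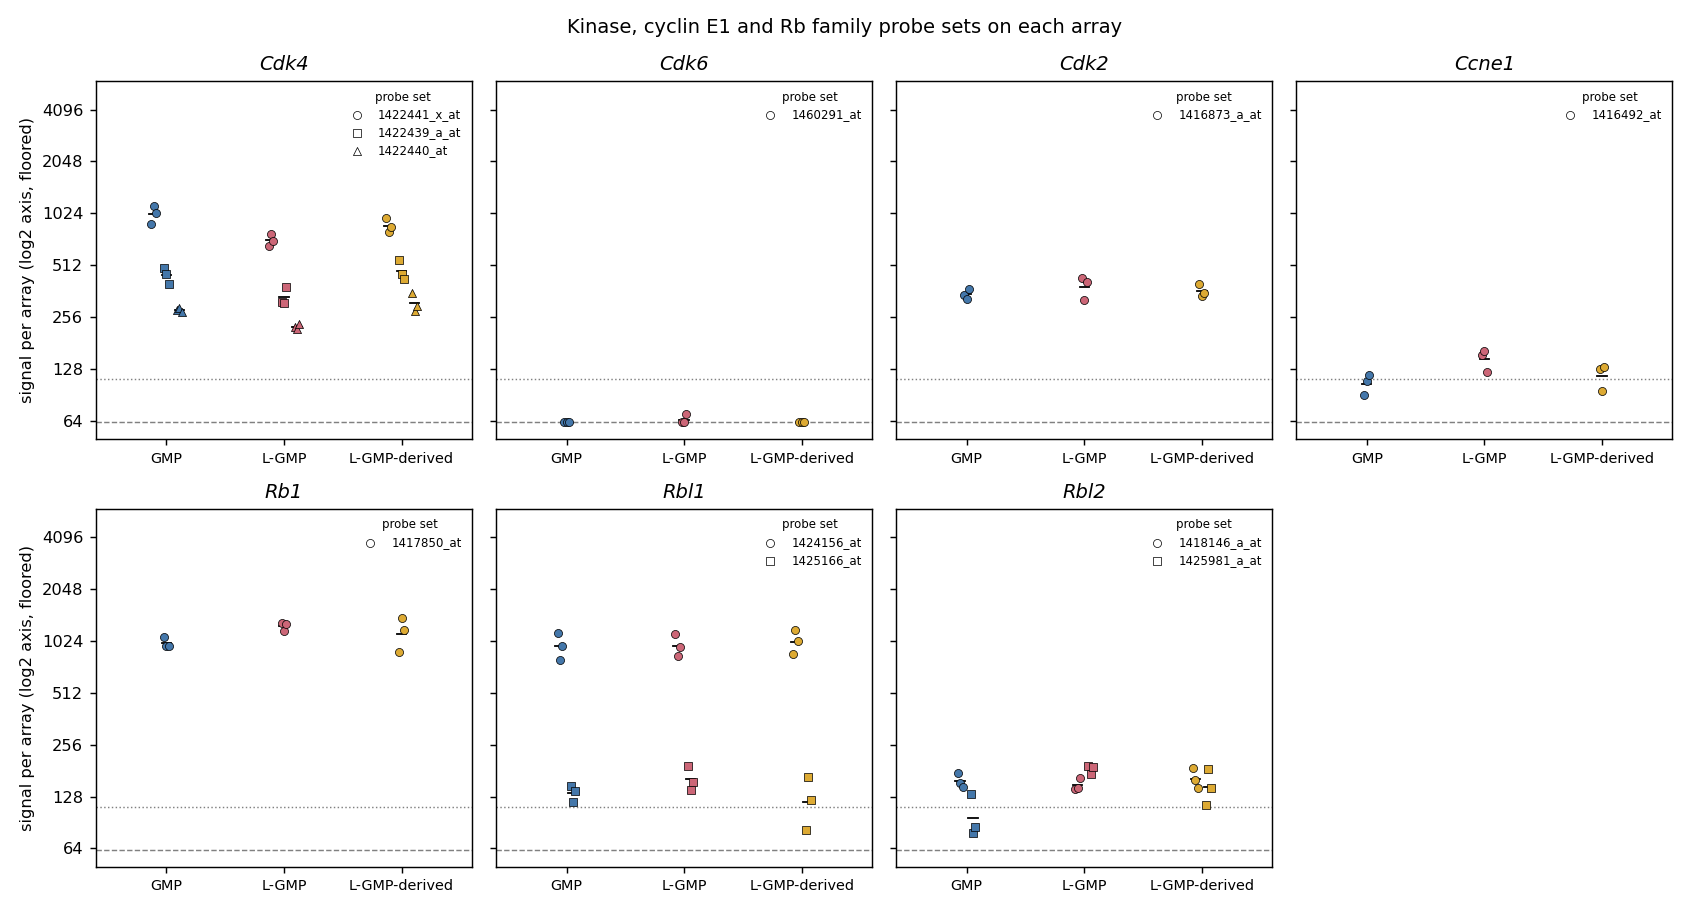
Signal of every probe set of Cdk4, Cdk6, Cdk2, Ccne1, Rb1, Rbl1 and Rbl2 on each array, on a log2 axis, with values under the floor drawn at it. Points are arrays, short lines are means of log2 signal, the dashed line is the floor of 62.4 and the dotted line the filter at 111. Apart from Cdk4, and Rbl2 by 1 of its probe sets, these genes did not pass the threshold between any groups.

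Rb1 encodes the retinoblastoma protein, the main brake on E2F. Its probe set, 1417850_at, read 1084, 959 and 963 in GMP, 1298, 1170.4 and 1289.9 in L-GMP and 882, 1384 and 1179 in L-GMP-derived cells. L-GMP lay above GMP without overlap, and the L-GMP-derived arrays spanned both groups, with replicate 1 the lowest of all 9. L-GMP was 1.25-fold higher than GMP (1253 ± 71.5 against 1002 ± 70.9, SD, n = 3), which did not pass (log2 fold change 0.32 ± 0.15 SE, limma adjusted p = 0.152). Without L-GMP-derived replicate 1, Rb1 passed in L-GMP (adjusted p = 0.0285) and in L-GMP-derived cells, 1.28-fold above GMP (adjusted p = 0.0343).

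Rbl1 encodes p107, a pocket protein that is itself an E2F target in cycling cells. Its probe set 1424156_at read 1143, 796 and 955 in GMP, 1126, 836 and 949 in L-GMP and 861, 1187 and 1019 in L-GMP-derived cells. The 3 groups overlapped throughout, and the limma adjusted p-values were 0.966 and 0.756 against GMP and 0.789 between the leukemic groups. The dimmer probe set, 1425166_at, ranged from 82.3 on L-GMP-derived replicate 1 to 192 on L-GMP replicate 1 and did not pass either (0.461, 0.639 and 0.197).

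Rbl2 encodes p130, the pocket protein typical of resting cells, and its probe sets disagreed. By 1418146_a_at the signals were 174, 153 and 146 in GMP, 142, 143 and 164 in L-GMP and 186, 160.0 and 143 in L-GMP-derived cells, with overlap in every comparison (limma adjusted p = 0.742, 0.849 and 0.569). By 1425981_a_at they were 133, 78.3 and 85.0 in GMP, 193, 174 and 189.8 in L-GMP and 115, 185 and 143 in L-GMP-derived cells. The L-GMP arrays were all above the GMP arrays by this probe set, 1.93-fold (log2 fold change 0.95 ± 0.22 SE, adjusted p = 0.0102). The L-GMP-derived cells were 1.51-fold above GMP, which did not pass (adjusted p = 0.079) but did without their replicate 1 (1.69-fold, adjusted p = 0.0263). The correlation between both probe sets over the 9 arrays was -0.091, so no direction is given for Rbl2 as a gene.

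Ccne1, cyclin E1, is the E2F-driven cyclin of the G1 to S transition. Its probe set, 1416492_at, read 89.9, 108 and 118 in GMP, 155, 163 and 123 in L-GMP and 127, 94.8 and 131 in L-GMP-derived cells. L-GMP was above GMP without overlap, 1.39-fold, which did not pass (log2 fold change 0.48 ± 0.18 SE, limma adjusted p = 0.0772). Cdk2, the partner of cyclin E, read 344, 325 and 373 in GMP, 431, 323 and 408 in L-GMP and 396, 339 and 354 in L-GMP-derived cells by 1416873_a_at. All 3 groups overlapped (adjusted p = 0.47 and 0.778 against GMP, 0.686 between the leukemic groups).

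The promoters of Rbl1 and Cdk2 are printed because each held 1 match to an E2F element. The Rbl1 window is chr2:157204535-157204784 on the minus strand, with TTTCGCGC in capitals, and the Cdk2 window is chr10:128705052-128705301 on the minus strand, with the reverse complement of TTTCCCGC in capitals, both 5′ to 3′ along the gene and from RefSeq on GRCm38.p6.
Rbl1: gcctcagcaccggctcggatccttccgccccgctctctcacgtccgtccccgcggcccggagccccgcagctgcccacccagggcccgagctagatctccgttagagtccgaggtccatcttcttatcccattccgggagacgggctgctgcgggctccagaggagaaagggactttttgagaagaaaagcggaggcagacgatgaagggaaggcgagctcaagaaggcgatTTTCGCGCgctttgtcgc
Cdk2: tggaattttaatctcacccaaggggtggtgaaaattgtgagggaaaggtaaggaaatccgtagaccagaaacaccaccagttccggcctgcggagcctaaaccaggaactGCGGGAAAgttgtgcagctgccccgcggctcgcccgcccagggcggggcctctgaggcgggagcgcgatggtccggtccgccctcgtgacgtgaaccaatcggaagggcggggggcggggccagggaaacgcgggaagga
The E2F elements searched on both strands were TTTCGCGC, TTTGGCGC, TTTCCCGC and TTTGGCGG, and 1.96% of the 32817 windows held at least 1 of them. TTTCGCGC occurred in 0.256% and TTTCCCGC in 0.893%. Windows were at hand for 7 of the 10 genes, 8 in all because Ccnd3 has 2 start sites. Neither an E2F element nor CACGTG was found in the windows of Ccne1, Rbl2 and Ccnd3, and the STAT element TTCNNNGAA, held by 7.01% of windows, was in none of the 8. The letters GGGCGG, a GC box held by 32.7% of windows, occurred in those of Rbl1, Ccne1, Cdk4, Cdk2 and Ccnd3, and CCAAT, held by 33.8%, in those of Cdk2 and the second start of Ccnd3.

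**Figure D4:**
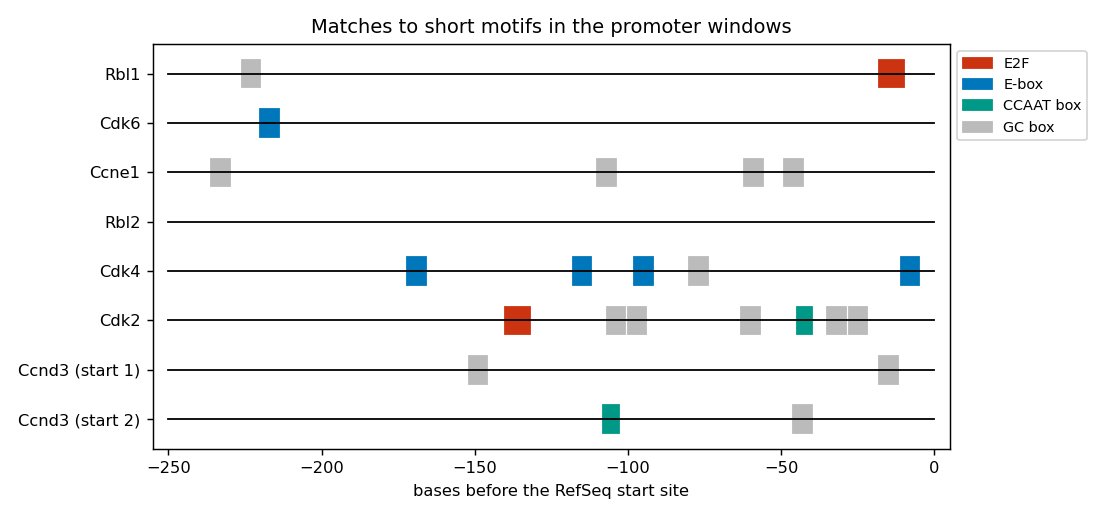
Matches to the searched elements in the 250 bases before the RefSeq start site of 7 genes, with 2 start sites for Ccnd3. The horizontal axis is distance in bases before the start site, and each block is 1 match on either strand. Cdk4 shows 4 E-box matches, and Rbl1 and Cdk2 show 1 E2F match each.

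**Figure D5:**
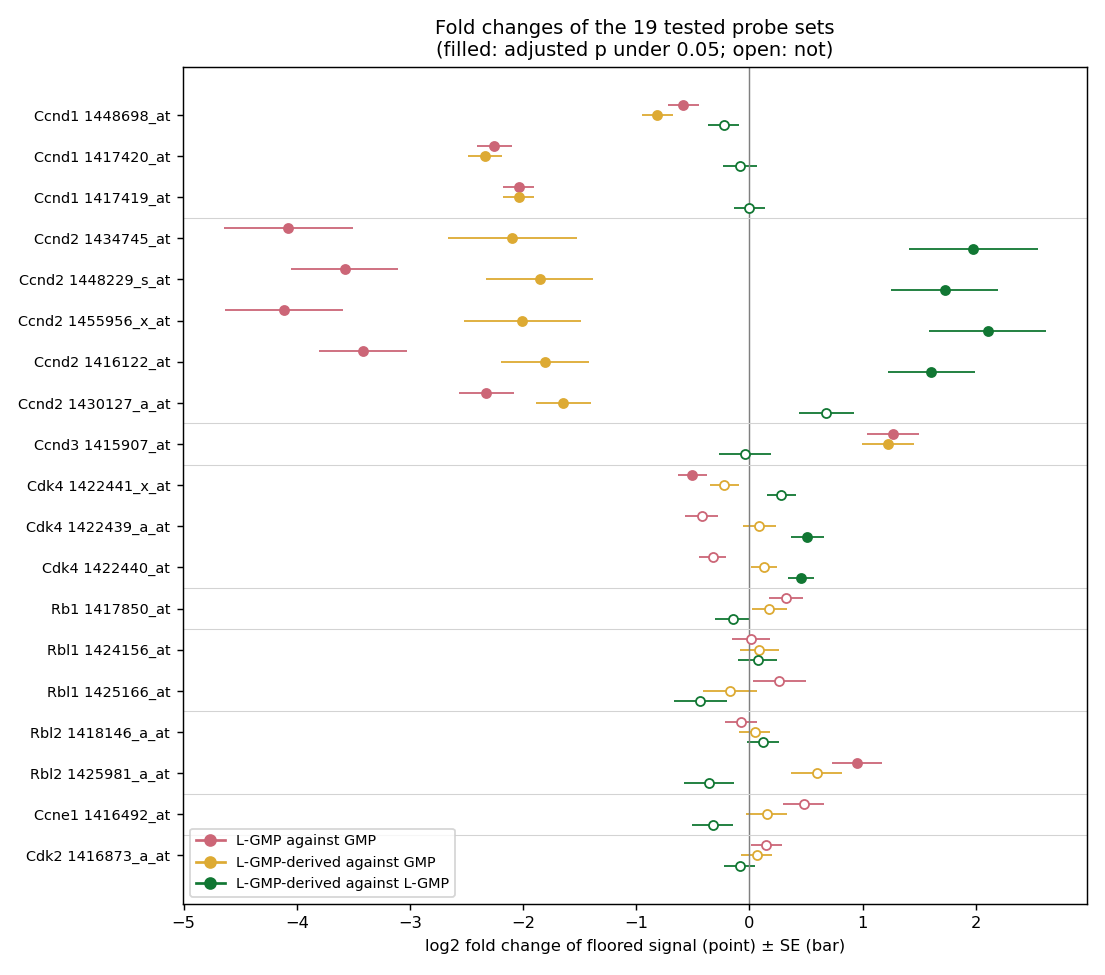
Log2 fold changes of the 19 tested probe sets in the 3 comparisons, with bars of ± SE, filled where the limma adjusted p was under 0.05. The Ccnd2 probe sets lie far to the left against GMP and to the right between the leukemic groups, and those of Rb1, Rbl1, Ccne1 and Cdk2 are all open points.

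By probe set rather than by gene, and without the 2 Ccnd1 probe sets that had to differ, 9 of 17 passed between L-GMP and GMP, 2 higher and 7 lower, where 25.9% of all tested probe sets passed (13.4% higher and 12.6% lower). In L-GMP-derived cells against GMP 7 passed, 1 higher and 6 lower, where 24.4% of all did (14.0% higher and 10.4% lower). Between the leukemic groups 6 passed, all higher in L-GMP-derived cells, where 29.9% of all did (16.4% higher and 13.5% lower). Of the 22 probe sets Ccnd2 has 7 and Ccnd1 and Cdk4 have 3 each, so these counts weigh a few genes heavily.

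The genes whose pattern was most like that of a member were ranked by Pearson's r of log2 signal over the 9 arrays, among the 8958 other tested genes. For Ccnd2 they were Ccnh at 0.981, Pls3 at 0.979 and Gsdme at 0.978, and 38 genes were over 0.95. Ccnh, which encodes the cyclin of the Cdk-activating kinase, read 4011, 4066 and 4033 in GMP, 2436, 2435 and 2321 in L-GMP and 2543, 3233 and 3075 in L-GMP-derived cells, with replicate 1 again the lowest of its group. For Ccnd1 they were Kif3c (0.973), Tfcp2 (0.973) and Ide (0.969), with 8 genes over 0.95. For Rbl1 they were Krt77 (0.928), Mbip (0.913) and Csnk1g2 (0.911), with 0 genes over 0.95. These values describe arrays that share 3 groups.

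The inhibitors that act on these kinases were examined as a list of 7 genes, 6 of them tested. Of these, Cdkn1c passed the filter only through the L-GMP arrays and had to differ, so it is left out of the counts. Of the other 5, in L-GMP 3 rose and 0 fell against GMP, where 13.1% of all genes rose and 12.8% fell, with a median log2 fold change of 0.76 against -0.01 over all genes. Cdkn2c, an INK4 inhibitor of Cdk4 and Cdk6, was 4.79-fold higher (1058 ± 332 against 216 ± 35.7, SD, n = 3, limma adjusted p = 7.58e-05). Cdkn1c (p57) read 965, 356 and 192 in L-GMP, with all GMP and L-GMP-derived arrays at the floor. Cdkn2d, another INK4 inhibitor, rose 1.89-fold and Cdkn1b (p27) 1.69-fold. In L-GMP-derived cells 1 of the 5 rose and 1 fell against GMP, where 13.4% of all genes rose and 10.6% fell, with a median of -0.34. Cdkn1a (p21) rose 7.37-fold (972 ± 324 against 138 ± 66.7, adjusted p = 2.06e-04) and Cdkn1b fell 1.40-fold. Against L-GMP 1 was higher and 3 were lower, where 16.6% of all genes rose and 14.1% fell. Cdkn1a was 5.21-fold higher, while Cdkn2c (6.07-fold), Cdkn1b (2.38-fold) and Cdkn2d (1.70-fold) were lower.

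The counts of the next gene lists stand against the same shares of all genes. Against GMP 13.1% of all genes rose and 12.8% fell in L-GMP, and 13.4% rose and 10.6% fell in L-GMP-derived cells. Between the leukemic groups 16.6% were higher and 14.1% lower in L-GMP-derived cells. Of 16 listed E2F factors and genes of the DREAM complex, 11 were tested. Only some of the listed genes join Rbl1 and Rbl2 in repressing cell cycle genes. In L-GMP Lin37 rose (1.37-fold) and E2f5 fell (1.89-fold) against GMP, and 9 did not pass. In L-GMP-derived cells Mybl2 (2.12-fold) and E2f6 (1.54-fold) rose and E2f5 (3.52-fold) and Lin9 (1.54-fold) fell against GMP. Against L-GMP 1 rose, Mybl2 (2.78-fold), and 3 fell, E2f5 (1.86-fold), E2f8 (1.48-fold) and Rbbp4 (1.07-fold). The E2f5 probe set, 1460207_s_at, can bind related transcripts.

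Of 18 tested E2F target genes of S phase entry, 1 rose and 2 fell in L-GMP against GMP, 3 of 18 where 25.9% of all genes passed, with a median log2 fold change of -0.06. Pola1, a subunit of DNA polymerase alpha, fell 1.75-fold and Ung 1.48-fold, and Pcna rose 1.13-fold. In L-GMP-derived cells 0 rose and 3 fell against GMP, which were Ung (1.66-fold), Pola1 (1.48-fold) and Ezh2 (1.28-fold). Of all genes 24.0% passed in that comparison and 30.7% between the leukemic groups. Against L-GMP, Rrm1 (1.37-fold) and Ccna2 (1.17-fold) were higher and Pcna (1.09-fold) lower, and without L-GMP-derived replicate 1 the counts were 3 higher and 2 lower.

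Of 13 tested genes of cyclin-Cdk activation and turnover, 2 rose and 4 fell in L-GMP against GMP. The shares of all genes were 13.1% higher and 12.8% lower there, and 13.4% and 10.6% in L-GMP-derived cells against GMP. Between the leukemic groups they were 16.6% and 14.1%. The largest changes were Ccnh, 1.68-fold lower, Mnat1, its partner in the Cdk-activating kinase, 1.40-fold higher, the inhibitory kinase gene Wee1, 1.36-fold lower, and Skp2, which marks Cdkn1b for degradation, 1.35-fold lower. In L-GMP-derived cells 3 rose and 3 fell against GMP, and without replicate 1 these counts were 2 and 1. The named genes were Mnat1 (1.63-fold), Cdc37 (1.59-fold) and Ambra1 (1.52-fold), which were higher, and Fbxw7 (1.42-fold), which was lower. Against L-GMP 5 were higher and 1 lower, led by Wee1 (1.43-fold), Cdk7 (1.40-fold), Cdc37 (1.39-fold) and Skp2 (1.35-fold). The leukemic groups overlapped for Skp2.

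Other cyclins and Cdks numbered 19 tested genes, of which 3 rose and 1 fell in L-GMP against GMP. The shares of all genes were 13.1% higher and 12.8% lower there, and 13.4% and 10.6% in L-GMP-derived cells against GMP. Between the leukemic groups they were 16.6% and 14.1%. Ccnb2 rose 1.64-fold, Ccnf 1.53-fold, with overlap between the groups, and Ccng2 1.45-fold, and Cdk16 fell 1.34-fold. In L-GMP-derived cells 3 rose and 2 fell, among them Ccnf (1.90-fold higher), Ccng1 (1.85-fold higher), Ccng2 (1.79-fold lower) and Cdk1 (1.56-fold higher). Against L-GMP 4 rose and 2 fell, or 4 and 6 without L-GMP-derived replicate 1. Ccng2 was 2.59-fold lower, Ccng1 1.90-fold higher, Ccnc 1.81-fold higher and Ccni 1.52-fold lower, and the groups overlapped for Ccnc.

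Of 10 tested proliferation markers, 4 rose and 0 fell in L-GMP against GMP and 5 rose and 0 fell in L-GMP-derived cells. The shares of all genes were 13.1% higher and 12.8% lower in L-GMP, and 13.4% and 10.6% in L-GMP-derived cells. Median log2 fold changes of the markers were 0.09 and 0.52, with -0.01 and 0.00 over all genes. Aurka rose 1.67-fold and 2.25-fold, Bub1b 1.43-fold and 1.66-fold, and Mki67 1.29-fold and 1.32-fold. Top2a rose 1.16-fold in L-GMP, where its arrays overlapped those of GMP, and 1.27-fold in L-GMP-derived cells, where they did not. Plk1 rose 1.85-fold in L-GMP-derived cells. Against L-GMP 3 were higher in L-GMP-derived cells and 0 lower, Bub1 (1.68-fold), Aurkb (1.67-fold) and Aurka (1.35-fold). Of all genes 16.6% were higher and 14.1% lower in that comparison. The 2 groups overlapped for Aurkb.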

How the data were processed

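The authors deposited 1 table of array intensities, linear and per probe set, made with MAS5 (version 5) per the submitters' processing notes. The sources used here do not give the background correction, summary or scaling target. Of the values 0.939% are negative, which the MAS5 signal algorithm does not give, so how the signals were summarized is unknown. Trimmed means of the 9 arrays lay within 4.02% of their mean, so the scaling was kept. The floor (62.4) and filter (111) are the 25th and 40th percentiles of all values, and 64 control probe sets were left out. Probe sets were named where the platform annotation gives 1 symbol. All 9 arrays entered 1 linear model (limma 3.58.1 in R 4.3.3, with lmFit, contrasts.fit and eBayes, trend on), which left 6 residual degrees of freedom, and its two-sided tests were tried on simulated data. The number of arrays limits the precision. Arrays were treated as unpaired. Deviations of same-numbered arrays from their group means correlated at -0.309 to 0.170. This cannot show whether replicate numbers pair the arrays, because differently numbered arrays were not compared.

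The 10 genes and all gene lists were chosen with earlier results of these data known. Named were the members with every probe set and the 3 genes most like Ccnd1, Ccnd2 and Rbl1. Of each list, up to 4 genes per comparison past the threshold with the largest change were named. Cdkn2d between the leukemic groups and Top2a in L-GMP-derived cells against GMP were named after their values were seen. Promoter windows came from RefSeq (GRCm38.p6), and only the 250 bases before the start were searched. A protein motif search that had been planned was not run here, nor was a likeness ranking for Cdk6, which was not tested.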

Additional observations from a re-analysis of the deposited data

How the results depend on the processing

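Other settings tried were quantile scaling, other floors, a stricter filter and none, no variance trend, fewer groups in the fit, array weights, averaged probe sets per gene, a block for the replicate number, and leaving out each array. The 8 calls of member genes had 150 alternatives: 133 kept the call, 17 lost it and 0 changed sign. The other 19 differences had 354, of which 326 stayed below the threshold with their sign, 9 passed and 19 changed sign, with an adjusted p of 0.0562 at the least. The cause was not tested for any of these. Counts of probe sets past the threshold in L-GMP against GMP were 3777, with 1916 under the replicate block and 2475 to 4904 with single arrays left out, the lowest without GMP replicate 3. In L-GMP-derived cells against GMP they were 3551, with 6912 under array weights, 1750 under the replicate block and 2306 (without GMP replicate 3) to 4456 with single arrays left out. Between the leukemic groups they were 4354, with 6482 under array weights and 3272 under the block. Member genes past the threshold in L-GMP against GMP went from 4 to 2 under the replicate block, which lost Ccnd1 (adjusted p = 0.119) and Cdk4 (0.0623). In L-GMP-derived cells against GMP the block lost Ccnd2 (0.138), and array weights gave 5 genes, adding Cdk4 and Rb1. GMP replicate 1 has no number to pair, so it drops out of the blocked comparisons, and the block changed no other member call. Between the leukemic groups the count of 1 became 0 without the filter and with only the 2 groups in the fit, 2 (adding Cdk4) with the mean over probe sets, and 0 to 1 with single arrays left out. Ccnd2 in L-GMP-derived cells against GMP also lost its call without the filter (adjusted p = 0.105) and with 2 groups in the fit (0.0573). The Ccnd2 call in L-GMP against GMP held under all 19 alternatives. Ccne1 in L-GMP passed with a 40th-percentile floor (0.0449) and under array weights (0.0491), and Rb1 with 2 groups in the fit (0.0288) and with array weights (0.0279).

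The sign changes are given as log2 fold changes. With the mean over probe sets Rbl2 was 0.44 in L-GMP against GMP and -0.12 between the leukemic groups, and Rbl1 was -0.043 in L-GMP-derived cells against GMP and -0.18 between the leukemic groups. With array weights Rbl2 was -0.054 in L-GMP-derived cells against GMP and -0.0060 between the leukemic groups. Under the replicate block Ccne1 was -0.013 and Cdk2 -0.015 in L-GMP-derived cells against GMP. With single arrays left out, Rbl1 ran from -0.12 to 0.14 in L-GMP against GMP, and in L-GMP-derived cells from -0.043 to 0.22 against GMP and from -0.040 to 0.19 against L-GMP. Rbl2 ran from -0.055 to 0.14 in L-GMP-derived cells against GMP. Between the leukemic groups Ccnd3 ran from -0.15 to 0.10, Rb1 from -0.30 to 0.030 and the within-array difference of Ccnd1 and Ccnd3 from -0.35 to 0.016. Counts of a list without L-GMP-derived replicate 1 were chosen after seeing the data. Values below the floor give only bounds, as for Ccnd2 in L-GMP by 1430127_a_at, and Cdk6 could not be tested.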
